A study of Homo sapiens with 4 samples.

Results

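The APOBEC3 cytidine deaminases are the genes APOBEC3A, APOBEC3B, APOBEC3C, APOBEC3D, APOBEC3F, APOBEC3G and APOBEC3H. They were taken by symbol from deposited tables of reads counted per gene, and all 7 were found among the 59050 genes counted. The tables cover RNA-seq of 4 libraries labelled as HepG2, a liver cancer line. There were 2 untreated libraries, taken at 0 h, and 2 libraries of cells given doxorubicin, which breaks DNA and thereby activates p53, at 1 ug/ml for 24 h. A treatment tag on the doxorubicin samples reads p53-miRNA in place of the drug. Their titles read HepG2-p53-mRNA-seq, and those of the untreated samples HepG2-nop53-mRNA-seq, so the titles do not name the drug either. The samples were grouped by these titles, and the drug is taken from the protocol. The groups otherwise shared the line and the growth medium. Drug and time went together, so an effect of doxorubicin and one of 24 h in culture cannot be told apart. The comparison was made to ask which mRNAs change once p53 is activated, and it does not separate p53 from other effects of the drug.

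APOBEC3 enzymes turn cytosine into uracil in single-stranded DNA. They act as innate defences against retroviruses, retrotransposons and DNA viruses, and the HIV protein Vif counters several of them by sending them to a ubiquitin ligase. The uracil they leave is cut out by UNG and the base excision repair enzymes, and when members with access to the nucleus act on the cell's own genome the result is the clustered and scattered C-to-T changes known from many tumors. Each enzyme holds its catalytic zinc in a domain with a histidine, a glutamate and a pair of cysteines. Some members carry a single such domain and others carry a pair, of which usually only the last is catalytic.

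The genes stand side by side on the plus strand of chromosome 22, from APOBEC3A to APOBEC3H in alphabetical order over 151.3 kb (chr22:38952741-39104067, GRCh38, GENCODE release 44). A search of the coding sequences for the zinc-binding pattern found 11 domains, 1 each in APOBEC3A, APOBEC3C and APOBEC3H and 2 each in APOBEC3B, APOBEC3D, APOBEC3F and APOBEC3G. Domains that bear on how reads can be told apart, or that belong to the members with most counts, are printed here 5′ to 3′ from the genome, each lying within a single coding exon, with the codons of the histidine, the glutamate and both cysteines in capitals. The second APOBEC3B domain lies at chr22:38991365-38991475, and the APOBEC3A domain at chr22:38961420-38961530 has the same 111 bases. The first APOBEC3B domain lies at chr22:38985833-38985937 and has the same 105 bases as the first APOBEC3F domain at chr22:39044962-39045066. The APOBEC3C domain lies at chr22:39017787-39017891. The second APOBEC3F domain lies at chr22:39052095-39052199 and has the same 105 bases as the second APOBEC3D domain at chr22:39031715-39031819. The APOBEC3H domain lies at chr22:39101246-39101350.
APOBEC3B domain 2 and APOBEC3A: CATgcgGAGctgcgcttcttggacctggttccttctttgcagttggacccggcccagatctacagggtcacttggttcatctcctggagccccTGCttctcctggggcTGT
APOBEC3B domain 1 and APOBEC3F domain 1: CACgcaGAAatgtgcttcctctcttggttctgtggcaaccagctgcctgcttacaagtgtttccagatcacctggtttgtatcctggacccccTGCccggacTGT
APOBEC3C: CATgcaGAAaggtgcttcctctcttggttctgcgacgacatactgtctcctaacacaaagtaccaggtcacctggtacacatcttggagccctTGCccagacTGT
APOBEC3F domain 2 and APOBEC3D domain 2: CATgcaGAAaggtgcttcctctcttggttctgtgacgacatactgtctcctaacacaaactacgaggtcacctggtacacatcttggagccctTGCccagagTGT
APOBEC3H: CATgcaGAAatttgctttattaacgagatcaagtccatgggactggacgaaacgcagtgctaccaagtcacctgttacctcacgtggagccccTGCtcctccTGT

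The APOBEC3C domain differed from that shared by APOBEC3D and APOBEC3F at 4 of 105 bases (96.2% identical) and from the first APOBEC3B domain at 26. Identity ran past the domains. The longest identical stretch of coding sequence was 196 bases between APOBEC3A and APOBEC3B, 222 between APOBEC3D and APOBEC3F and 172 between APOBEC3B and APOBEC3D. A read from such a stretch fits more than 1 gene, and how the counting treated those reads is not given in the sources used here. Cut into windows of 100 bases, 20.5% of the APOBEC3B transcript was found unchanged in another member, 11.7% in APOBEC3A, 6.71% in APOBEC3D and 2.15% in APOBEC3F. For APOBEC3A 13.9% of windows were shared, all with APOBEC3B, while APOBEC3C and APOBEC3H shared 0% of windows of this length. Counts of APOBEC3A, APOBEC3B, APOBEC3D, APOBEC3F and APOBEC3G are therefore uncertain by an amount that these tables do not show, and those of APOBEC3C and APOBEC3H are little exposed to it.

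**Figure D1:**
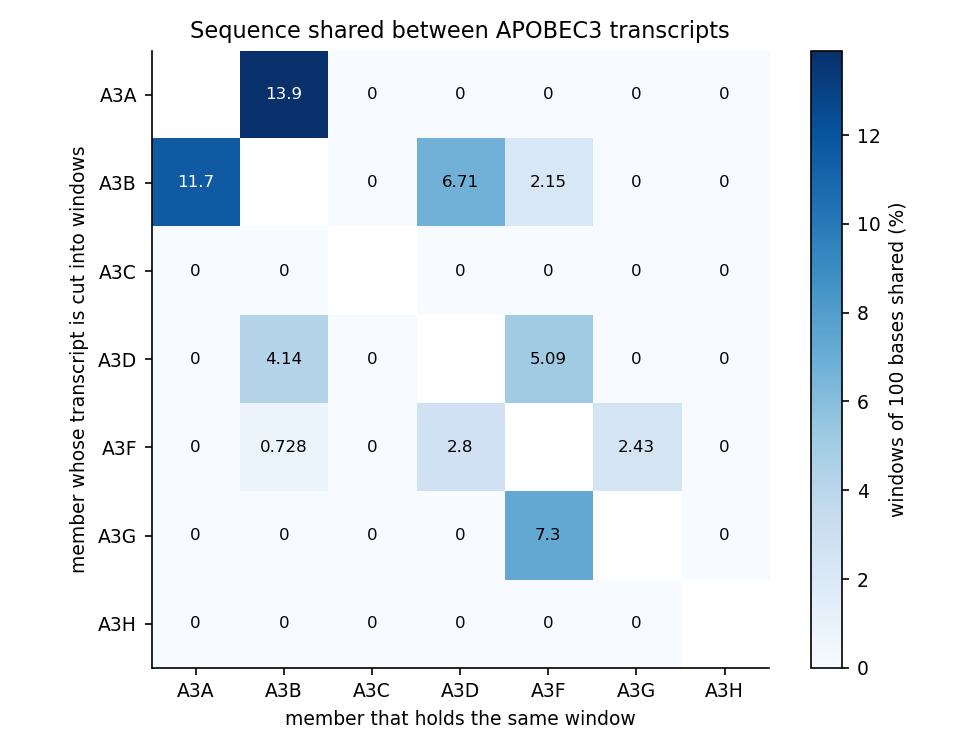
Percent of 100-base windows of each member's transcript (rows) that occur unchanged in the transcript of another member (columns), from the reference sequence and not from the libraries. The darkest cells join APOBEC3A and APOBEC3B at 13.9% and 11.7%, and the rows of APOBEC3C and APOBEC3H hold only 0.

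The libraries held 27572740 to 36272180 counts. Untreated replicate 2 stood apart from the other 3 libraries: 4334 genes had counts in it alone, against 778 such genes in untreated replicate 1 and 1180 and 1199 in the doxorubicin libraries. Log2 fold changes from the test are given with and without it. The labelled cell type was checked against markers. Of 10 hepatocyte markers, ALB had 0 to 3 counts per library, and APOH and TTR had at most 2. FGB, HNF4A, TF and AFP were higher, at up to 3.09, 1.92, 1.63 and 1.49 CPM (counts scaled to a library total of 1000000). The summed level of all 10 was 0.937 and 3.98 CPM in the untreated and 5.89 and 4.75 CPM in the doxorubicin libraries. Liver markers were thus low or near 0. The keratins KRT8 and KRT18 of simple epithelia were high, at 2088 to 4105 CPM and 783 to 1793 CPM. Other epithelial markers were low, with EPCAM at 0 to 7 counts, CDH1 at 5 to 21 and KRT5 at 0 to 11. KRT14 stood above these, at 2.81 and 2.39 CPM untreated and 7.43 and 5.15 CPM with doxorubicin. Of the fibroblast markers, COL1A1 had 46.4 to 84.4 CPM and COL3A1 46.0 to 70.0 CPM, while COL1A2 had 0 to 2 counts. The marker lists thus did not point to a single cell type. Whatever cells these were, values are described here as those of the labelled line. In RNA from whole cultures, fewer cells of a type and less RNA per cell cannot be told apart.

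APOBEC3C and APOBEC3B carried nearly all APOBEC3 counts in every library. As CPM per kb of exon, a scale on which genes can be compared, APOBEC3C, a broadly expressed member with a single domain, had a mean level of 20.7 (22.3 and 19.6 in untreated, 22.6 and 18.4 in doxorubicin libraries). APOBEC3B, a nuclear enzyme linked to C-to-T changes in tumors, followed with a mean level of 10.0 (7.20, 14.3, 8.92 and 9.55). APOBEC3C lay above APOBEC3B in each of the 4 libraries, and their ranges were apart. APOBEC3H, known for protein variants of unequal stability, came next at a mean of 0.414, then APOBEC3F at 0.136, and APOBEC3B, APOBEC3H and APOBEC3F kept this order in all 4 libraries. APOBEC3A, APOBEC3D and APOBEC3G had means of 0.0503, 0.0261 and 0.00644 CPM per kb. APOBEC3A lay above APOBEC3D in only 2 libraries, and with 12, 8 and 4 counts in all 4 libraries together the last 3 places are not told apart. The order of all 7 was the same when the longest transcript stood in for the union of exons.

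**Figure D2:**
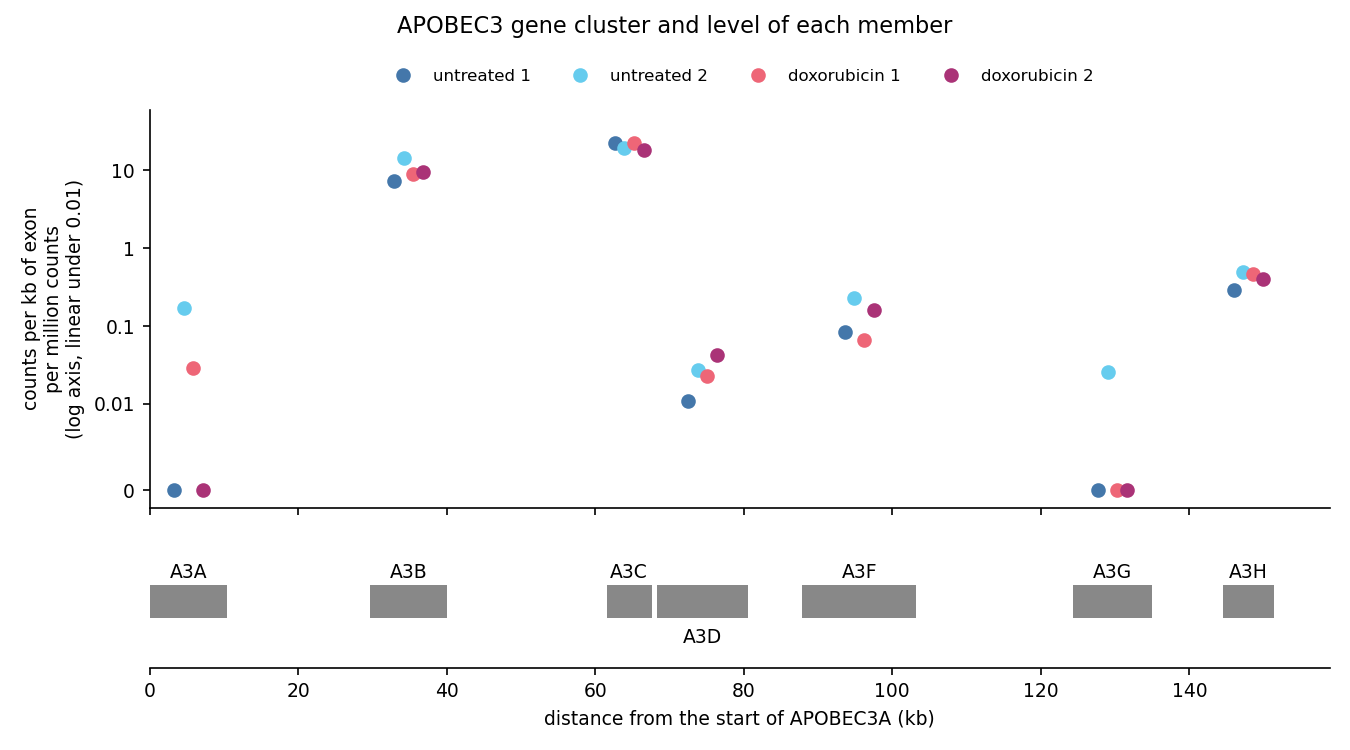
Level of each member in each library (CPM per kb of exon, log axis that is linear under 0.01), plotted above the gene's place in the cluster as distance from the start of APOBEC3A in kb. APOBEC3C and APOBEC3B lie between 7.20 and 22.6 in all 4 libraries, and no other member exceeds 0.498.

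APOBEC3C had 2138 and 1495 counts in untreated replicates 1 and 2 and 2052 and 1343 counts in doxorubicin replicates 1 and 2. These are 58.9 and 51.8 CPM untreated and 59.8 and 48.7 CPM with doxorubicin. The highest and the lowest value were both doxorubicin libraries, so the groups overlapped. Group means were 55.4 ± 5.07 CPM untreated and 54.3 ± 7.85 CPM with doxorubicin (SD, n = 2 each). In the quasi-likelihood test of edgeR over the 17479 genes that passed its filter on low counts, the log2 fold change of APOBEC3C was -0.18 (standard error 0.35, 95% interval -1.05 to 0.68, Benjamini-Hochberg adjusted p = 0.882).

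APOBEC3B had 495 and 785 counts in the untreated libraries and 580 and 499 counts in the doxorubicin libraries. On the CPM scale this was 13.6 (exact Poisson 95% interval 12.5 to 14.9) in untreated replicate 1, 27.2 (25.3 to 29.2) in untreated replicate 2, 16.9 (15.6 to 18.3) in doxorubicin replicate 1 and 18.1 in doxorubicin replicate 2. Untreated replicate 2 was the highest and untreated replicate 1 the lowest, with both doxorubicin libraries in between. The untreated libraries differed from each other by 1.99-fold, beyond counting error, and the doxorubicin values lay inside that spread. The log2 fold change was -0.38 (standard error 0.48, 95% interval -1.58 to 0.82, adjusted p = 0.825 by the same edgeR test). Without untreated replicate 2, both doxorubicin libraries lay above the untreated library and the log2 fold change turned to 0.21 (standard error 0.28, 95% interval -0.33 to 0.75, edgeR adjusted p = 0.735). Its direction thus depended on which untreated library was used, and both intervals included 0.

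**Figure D3:**
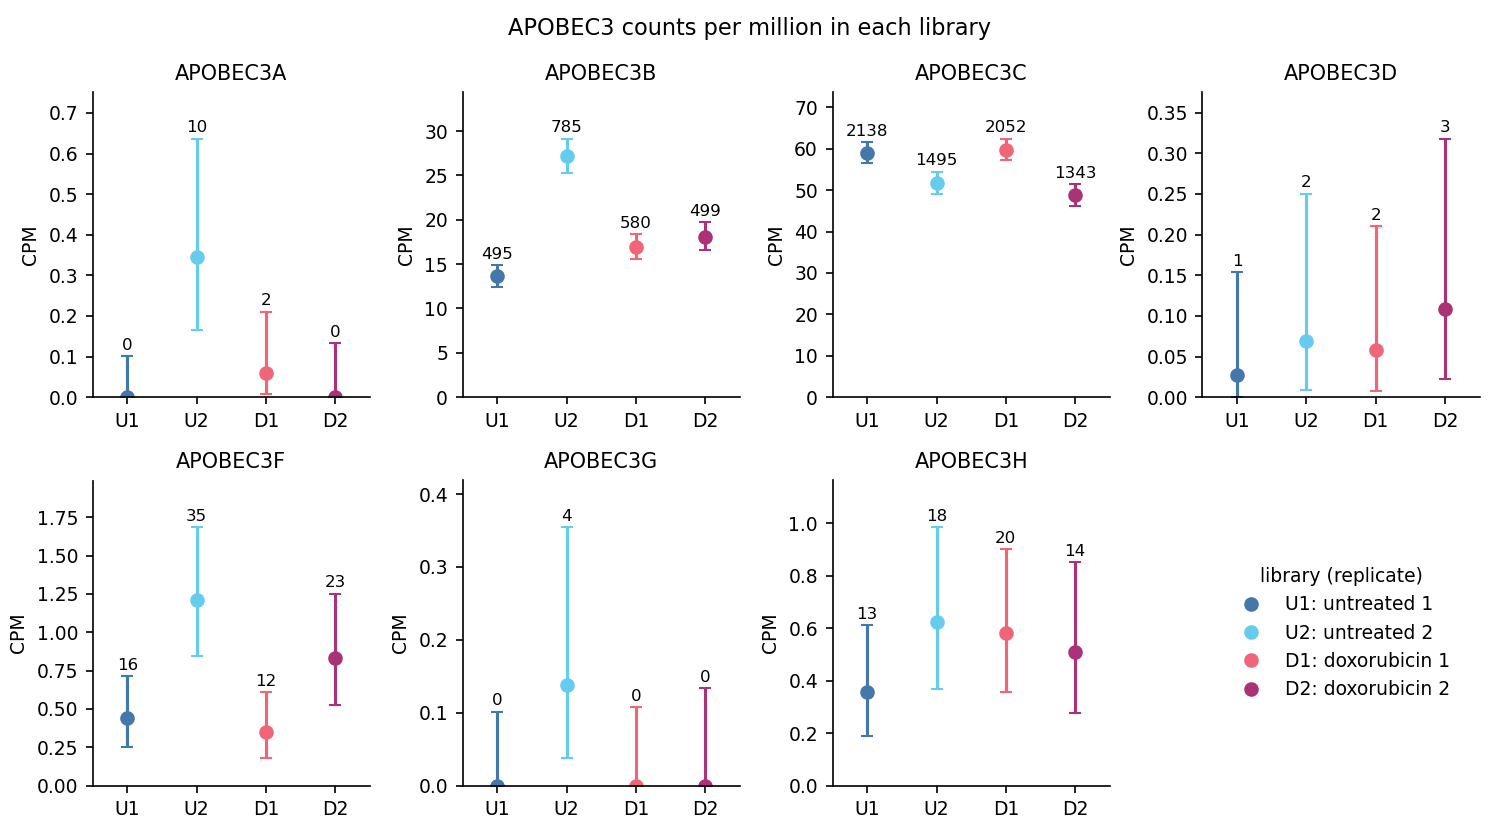
CPM of each member in untreated replicates 1 and 2 (U1, U2) and doxorubicin replicates 1 and 2 (D1, D2), with exact Poisson 95% intervals for counting error only and the count above each point; each panel has its own axis from 0. APOBEC3C stays between 48.7 and 59.8 CPM, and U2 is the highest point for APOBEC3A, APOBEC3B, APOBEC3F, APOBEC3G and APOBEC3H.

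The make-up of the family differed between libraries more than its sum did. All 7 members together took 73.4 and 81.4 CPM in the untreated libraries and 77.8 and 68.3 CPM in the doxorubicin libraries. APOBEC3B made up 18.6% (Clopper-Pearson 95% interval 17.1 to 20.1) of the APOBEC3 counts in untreated replicate 1 and 33.4% (31.5 to 35.4) in untreated replicate 2. In the doxorubicin libraries it made up 21.7% (20.2 to 23.4) and 26.5% (24.5 to 28.6). The doxorubicin replicates differed from each other beyond counting error here, and both lay between the untreated replicates. For every APOBEC3B count there were 4.32 and 1.90 counts of APOBEC3C in the untreated and 3.54 and 2.69 in the doxorubicin libraries. The other 5 members together made up 1.13% to 2.94% of the family's counts. These intervals and the floors given below cover counting error only.

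APOBEC3F, which is packed into HIV particles that lack Vif and hinders their replication, had 16 and 35 counts untreated and 12 and 23 counts with doxorubicin. These are 0.441 and 1.21 CPM untreated and 0.350 and 0.834 CPM with doxorubicin. The lowest value was a doxorubicin library and the highest untreated replicate 2, and the groups overlapped. Its log2 fold change was -0.64 (standard error 0.79, 95% interval -2.61 to 1.34, edgeR adjusted p = 0.821) and turned to 0.22 (standard error 0.66, 95% interval -1.08 to 1.52, edgeR adjusted p = 0.899) without untreated replicate 2. APOBEC3H had 13 and 18 counts untreated and 20 and 14 counts with doxorubicin, or 0.358, 0.623, 0.583 and 0.508 CPM in that order. Untreated replicate 1 was the lowest and untreated replicate 2 the highest. Its log2 fold change was 0.04 (standard error 0.63, 95% interval -1.55 to 1.62, edgeR adjusted p = 0.988), and 0.47 (95% interval -0.90 to 1.84) without untreated replicate 2. This sign fell below 0 when RLE or upper-quartile factors replaced the TMM factors.

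APOBEC3A, APOBEC3D and APOBEC3G did not pass the filter on low counts and were not tested. APOBEC3A, an interferon-induced enzyme of myeloid cells and keratinocytes, had 0 and 10 counts untreated and 2 and 0 counts with doxorubicin. All but 2 of its 12 counts thus came from untreated replicate 2, at 0.346 CPM, and the stretches it shares with APOBEC3B, which was also highest there, leave their origin uncertain. APOBEC3G, which blocks HIV without Vif and acts on cytosines that follow a cytosine, had 4 counts in untreated replicate 2 and 0 in the other 3 libraries, where a count of 0 allows up to 0.0827, 0.0874 and 0.109 CPM (3 counts each). APOBEC3D, also a restriction factor of HIV, had 1, 2, 2 and 3 counts. Outside untreated replicate 2 these members had at most 3 counts in any library, so no fold is given, and a difference between the groups was not detectable at this depth. The antisense gene APOBEC3B-AS1 and the pseudogene APOBEC3AP1 were listed at 0 in all 4 libraries.

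The doxorubicin values were above the untreated values without overlap for 0 of the 4 members tested and below them for 0 of 4, against 30.3% and 11.5% of all genes tested. Groups also overlapped for APOBEC3A, APOBEC3D and APOBEC3G, which were not tested. Of the 4 members tested, 0 were called, which took an adjusted p under 0.05 and a difference of 1 or more on the log2 scale. The same rule called 0% of all genes, while DESeq2 called 89 genes and 0 members. Of the members, 0 also had an unadjusted p under 0.05, against 4.39% of all genes (768 genes, edgeR quasi-likelihood test). The median log2 fold change of the 4 was -0.28, against 0.01 over all genes. A p that misses the threshold does not show that values did not differ, and each of the 4 intervals reached past 1 on the log2 scale in at least 1 direction.

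For 5 of 7 members the highest value was that of untreated replicate 2, including 3 of the 4 tested, against 36.6% of all genes. It lay within the range of the other libraries for APOBEC3C and APOBEC3D, or 1 of the 4 tested, against 18.4% of all genes. Against untreated replicate 1 alone, both doxorubicin libraries were higher for APOBEC3B, APOBEC3D and APOBEC3H, or 2 of the 4 tested, against 53.1% of all genes, and both were lower for 0 members, against 24.7%. The fit without untreated replicate 2 takes the lone untreated library to vary as the doxorubicin libraries do. In it 0 of 4 members were called while 4.44% of all genes were (815 of 18356), and the median of the members turned to 0.22, with APOBEC3C the only member tested below 0 at -0.26 (95% interval -0.73 to 0.20). The p53 target CDKN1A, which encodes the cell cycle inhibitor p21, had 380.1 and 865.6 CPM untreated and 1003 and 880.3 CPM with doxorubicin, a log2 fold change of 0.44, and of 1.16 without untreated replicate 2 (edgeR adjusted p = 3.4e-05). With untreated replicate 2 as the only untreated library, 44.4% of genes were called and again 0 of the 4 members, although APOBEC3B had an adjusted p of 0.0112 at a log2 fold change of -0.72 (standard error 0.26, edgeR).

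**Figure D4:**
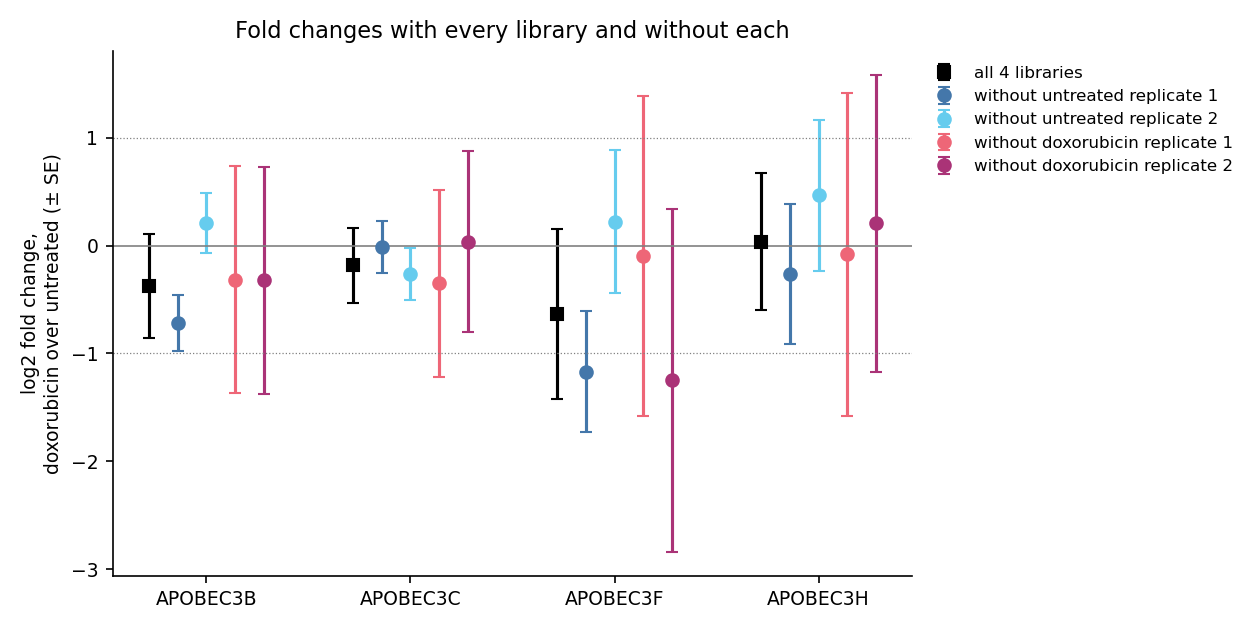
Log2 fold change of doxorubicin over untreated with its standard error (bars) for the 4 members tested, from all 4 libraries (black squares) and with each library left out (colored points); dotted lines mark -1 and 1. APOBEC3B goes from -0.72 without untreated replicate 1 to 0.21 without untreated replicate 2, and APOBEC3C stays between -0.35 and 0.04.

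White blood cells are rich in several APOBEC3 mRNAs, and their markers, taken as a sum, were highest in untreated replicate 2. The summed level of 10 leukocyte markers was 3.61 and 24.3 CPM in the untreated and 6.27 and 6.06 CPM in the doxorubicin libraries. Most of this was CD14, at 16.7 CPM in untreated replicate 2 and 0.816 to 1.13 CPM elsewhere, followed by NKG7 with 87 counts against at most 2 and ITGAM with 74 counts against at most 11. The defining markers were near 0: PTPRC, which all leukocytes carry, had 12 counts there and at most 3 elsewhere, CD3E had 0 to 2 counts and CD2 had 0 in every library. The leukocyte marker CSF1R was lowest there, at 1.35 CPM against 2.12 to 5.22 CPM elsewhere. Of the 10 markers, 3 passed the filter on low counts. Some markers of other cell types also peaked in untreated replicate 2. TF had 47 counts there against at most 13 elsewhere, AFP 43 against at most 16 and CDH1 21 against at most 7. FGB and HNF4A were lowest there. The part of the leukocyte genes in the high values of APOBEC3A, APOBEC3B, APOBEC3F and APOBEC3G in that library was not tested.

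The relatives of the family outside the cluster were close to silent. APOBEC1, which edits APOB mRNA, had 0 to 3 counts per library, APOBEC2 had 1 to 10 and APOBEC4 had 0 to 5. Of these 3 genes, 0 had enough counts to be tested.

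Of 13 genes listed for uracil excision repair and steps linked to it, 0 were called and 10 had a log2 fold change below 0, against 8606 of the 17479 genes tested. Their median was -0.35, and -0.42 without untreated replicate 2, with 11 of 13 below 0 and again 0 called. UNG, the glycosylase that takes most uracil out of DNA, had 99.7 and 124 CPM untreated and 77.6 and 76.5 CPM with doxorubicin. Both doxorubicin libraries lay below both untreated ones, at a log2 fold change of -0.69 (standard error 0.32, unadjusted p = 0.0755, edgeR adjusted p = 0.773), and -0.52 without untreated replicate 2. APEX1, which nicks the site left by UNG, had 238 and 358 CPM untreated and 192 and 172 CPM with doxorubicin (log2 fold change -0.87, edgeR unadjusted p = 0.0445), and -0.53 without untreated replicate 2. FEN1, which trims the flap in long-patch repair and also serves replication, had 178 and 404 CPM untreated and 151 and 143 CPM with doxorubicin (log2 fold change -1.14, edgeR unadjusted p = 0.0482). Without untreated replicate 2 its log2 fold change was -0.42 (edgeR unadjusted p = 0.0578). Both APEX1 and FEN1 had an adjusted p of 0.773 in the edgeR test, and their groups did not overlap. DUT, which keeps uracil out of new DNA, had 77.4 and 156 CPM untreated and 71.9 and 86.0 CPM with doxorubicin, with groups that overlapped (log2 fold change -0.72, standard error 0.43, and -0.12 without untreated replicate 2). Groups did not overlap for REV1 and POLB, 2 of 13 with doxorubicin higher against 30.3% of all genes, and for FEN1, UNG, APEX1 and LIG1, 4 of 13 with doxorubicin lower against 11.5% of all genes. REV1 had 18.44 and 4.05 CPM untreated and 18.65 and 22.01 CPM with doxorubicin. Its log2 fold change was 0.68, and -0.0089 without untreated replicate 2.

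Factors known to act at APOBEC3 promoters stood on both sides of 0. They are the NF-kappaB subunits, B-MYB and FOXM1, the DREAM complex with its repressive pocket proteins, and the interferon factors, among others. Of 21 such genes 20 were tested and 0 were called, with a median log2 fold change of 0.04. Genes for which the doxorubicin libraries lay above without overlap included RBBP4, LIN54, RELA, RBL2 and RBL1, and those for which they lay below included FOXM1 and MYBL2. In all these were 6 of 20 above and 3 of 20 below, against 30.3% and 11.5% of all genes. MYBL2, which encodes B-MYB, had 374 and 353 CPM untreated and 293 and 274 CPM with doxorubicin (log2 fold change -0.51, standard error 0.28, and -0.55 without untreated replicate 2). RELB, an NF-kappaB subunit of the non-canonical pathway, had 15.7 and 67.4 CPM untreated and 34.5 and 38.4 CPM with doxorubicin. Untreated replicate 2 was highest and untreated replicate 1 lowest, so the groups overlapped. The log2 fold change of RELB was -0.34 (standard error 0.69), and without untreated replicate 2 it was 1.06.

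**Figure D5:**
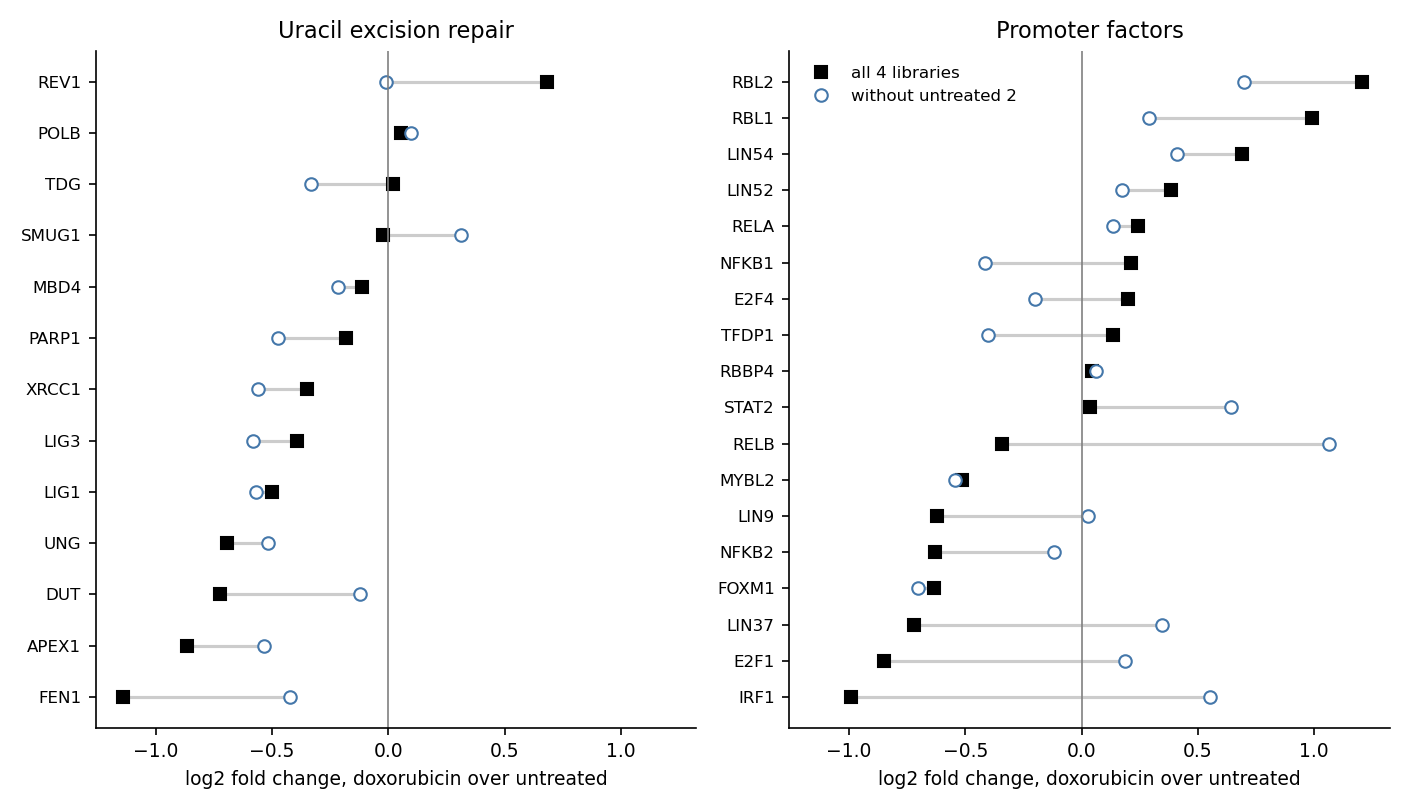
Log2 fold change of doxorubicin over untreated for 13 genes of uracil excision repair (left) and genes for promoter factors (right), from all 4 libraries (black squares) and without untreated replicate 2 (open circles). Repair genes lie mostly below 0 in both fits, and RELB goes from -0.34 to 1.06.

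The host genes of the ligase that Vif recruits against APOBEC3 proteins were all tested and 0 of 5 were called, with a median log2 fold change of -0.21 (-0.09 without untreated replicate 2). ELOB had 226 and 378 CPM untreated and 258 and 197 CPM with doxorubicin, and ELOC had 142 and 207 CPM untreated and 142 and 154 CPM with doxorubicin. Groups overlapped for both of these subunits of the adaptor. Over the whole list, doxorubicin libraries lay above without overlap for 2 of 5 genes and below for 1 of 5, against 30.3% and 11.5% of all genes. Among genes within 500 kb of the cluster, 20 of 23 were tested and 0 were called, with a median log2 fold change of 0.11. Doxorubicin libraries lay above without overlap for 9 of 20 and below for 2 of 20, against 30.3% and 11.5% of all genes. RPL3, a ribosomal protein gene, had 1301 and 1055 CPM untreated and 1154 and 951.7 CPM with doxorubicin. ATF4, the transcription factor of the integrated stress response, had 467 and 309 CPM untreated and 655.1 and 655.5 CPM with doxorubicin, both above (log2 fold change 0.60, edgeR adjusted p = 0.773, and 0.34 without untreated replicate 2). Without untreated replicate 2 the median of the neighbours was 0.27, with NPTXR at 1.29. NPTXR was named after its values were seen.

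Genes with the most similar course over the 4 libraries were found by the distance between their log2 CPM values, each centred on the gene's own mean. Nearest to APOBEC3C were P2RX6P at 0.018, PYGB at 0.033 and SEC61A1 at 0.034. Nearest to APOBEC3A, the member with the widest range (2.76 on the log2 CPM scale), were AC007318.2 at 0.15, LINC00526 at 0.18 and AC012640.2 at 0.18. The range and profile of APOBEC3A rest on 12 counts, 10 of them in untreated replicate 2, and on the prior count of 2. APOBEC3B was added to this search after its values were seen, and its nearest genes included CDADC1 at 0.029 and TCEAL4 at 0.053. CDADC1, which encodes a protein with a cytidine deaminase domain, had 9.87 and 19.3 CPM untreated and 11.9 and 12.9 CPM with doxorubicin. A likeness over 4 values is common, since 499 genes lay within 0.25 of APOBEC3C and 307 within 0.25 of APOBEC3B. For APOBEC3A the number was 10, which rests on its few counts.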

How the data were processed

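The authors deposited whole-number counts of reads per gene for each library, without normalization. The sources name HISAT2 for mapping to hg38 and HTSeq for counting, and the header of the counts names the basic annotation of GENCODE release 31. Tool versions, the strand setting and the handling of reads that fit several places are not given in the sources used here. RNA was selected with poly-T beads. Libraries were grouped by the labels, with 2 replicates per group. The labels call the replicates biological, and p-values measure the spread between these libraries.

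CPM is the count over the library total, times 1000000. Counts were tested by edgeR 4.0.16 (R 4.3.3) after filterByExpr, with TMM factors and glmQLFit in its newer form (legacy = FALSE). Genes were called at a Benjamini-Hochberg adjusted p under 0.05 with a difference of 1 or more on the log2 scale. Fold changes used a prior count of 0.125. Intervals are at 95%, and floors are 3 counts. Levels per length used exons of GENCODE release 44, whose gene models may differ from those counted. Profiles used edgeR log2 CPM with a prior count of 2. Sequences, windows and zinc-binding patterns (histidine, any residue, glutamate, then proline and cysteine and a last cysteine) were read with Python 3.11.15 and Biopython 1.88. The scripts were tested on simulated data. DESeq2 1.42.0, other tests, factors and filters, a replicate block and the omission of each library were alternatives. TMM-scaled CPM or an omitted library for the overlap of groups, and the earlier form of the edgeR fit, were added after seeing the data.

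The members and gene lists (other APOBEC genes, uracil excision repair, promoter factors, Vif partners, neighbours within 500 kb, and markers of hepatocytes, epithelium, leukocytes and fibroblasts) were chosen with earlier results of these data known. Named genes were the 7 members, list genes with an unadjusted p under 0.05 or otherwise the 2 with the highest mean CPM, UNG, DUT, MYBL2, RELB and CDKN1A, and the 3 nearest profiles of the members with the highest mean CPM and the widest range. Some genes that these lists and rules take in are counted with the rest but not reported here by name. Of the epithelial list 3 of 8 genes were tested, with KRT8 at an unadjusted p of 0.0101 and a log2 fold change of -0.99. Of the fibroblast list 4 of 5 were tested, with DCN at an unadjusted p of 0.00144 and a log2 fold change of 3.59. Of the hepatocyte list 4 of 10 were tested, with FGB at an unadjusted p of 0.00178 and a log2 fold change of 3.76. Of the leukocyte list CD14 had an unadjusted p of 0.0435 and a log2 fold change of -3.45. All 4 had an adjusted p of 0.773 in the edgeR test. Without untreated replicate 2, KRT8 (-1.00, adjusted p = 8.0e-05), DCN (3.80, adjusted p = 8.3e-12) and FGB (3.71, adjusted p = 2.5e-06) were called by edgeR, and CD14 was at -0.49 (adjusted p = 0.657).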

Additional observations from a re-analysis of the deposited data

How the results depend on the processing

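Among the members tested, 0 were called under any of 14 alternatives. Most of these tested 4 members, the filter at 1 CPM tested 2, and only the fit with no filter tested all 7. Over all genes, DESeq2 called 89, the exact test of edgeR 46, its likelihood ratio test 64 and the replicate block 20, and leaving out 1 library gave 0 to 8697 calls. With the replicate block, the log2 fold changes of APOBEC3B, APOBEC3C, APOBEC3F and APOBEC3H were -0.30, -0.19, -0.62 and 0.05, and no call changed among them. Libraries with the same number deviated together only weakly (correlation across genes 0.0219), so the numbers are not shown to pair the libraries.

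APOBEC3H turned to -0.054 under DESeq2, -0.016 with RLE factors and -0.011 with upper-quartile factors. With 1 library left out, APOBEC3B ran from -0.72 to 0.21, APOBEC3C from -0.35 to 0.038, APOBEC3F from -1.25 to 0.22 and APOBEC3H from -0.26 to 0.47. The members' median then ran from -0.49 to 0.22, that of uracil excision repair from -0.55 to -0.0845, of promoter factors from -0.10 to 0.10, of Vif partners from -0.23 to -0.0945 and of neighbours from -0.018 to 0.27. Library size alone in place of TMM factors moved the median of all genes from 0.01 to 0.17 and those 4 lists to -0.20, 0.20, -0.055 and 0.26 in the same order. Members above in every library numbered 0 to 2 as 1 library was left out, and members below 0 to 3, where fewer libraries are compared and overlap is rarer by construction. Without untreated replicate 2, 2 of the 4 tested lay above and 0 below, against 53.1% and 24.7% of all genes. For the other omissions the share over all genes was not computed, so those counts cannot be read as a trait of the members. The cause of the other shifts was not tested.

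Depth limits APOBEC3A, APOBEC3D and APOBEC3G, at 12, 8 and 4 counts in all. APOBEC3F and APOBEC3H have no value under the filter that asks for 1 CPM in 2 libraries.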
